A study of Mus musculus with 15 samples.

Results

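In mouse bone marrow, 10 genes for C-type lectin receptors were followed through early dendritic cell development. They are used as markers of the type 2 lineage of conventional dendritic cells (cDC2) and of related myeloid cells. The list was Cd209a, Cd209d, Cd209e, Mgl2, Clec10a, Clec4a2, Clec4a3, Clec4b1, Clec4n and Clec7a, 10 of the 19938 genes tested. A gene was taken from a probe set annotated to that symbol alone. Each of the 10 had 1 such probe set, so all 10 were measured and none was lost to a filter.

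RNA was profiled on 15 Affymetrix arrays, of which 12 entered the comparisons. Cells were sorted from the marrow of mice that all carried a Zbtb46-GFP reporter, in which green fluorescent protein marks expression of Zbtb46, a transcription factor of the conventional dendritic cell lineage. The groups were Zbtb46-GFP+ cells with an intermediate level of the stem cell factor receptor cKit and common dendritic cell progenitors (CDPs), each from Batf3 KO, Id2 KO and WT mice. The labels call the Id2 KO and WT donors chimeric but not the Batf3 KO donors, so the kind of host and the Batf3 genotype cannot be told apart. The labels gave neither age nor sex, and did not say whether the arrays of a group came from separate animals, so p-values measure only the spread between arrays.

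C-type lectin receptors bind sugars on microbes and on host proteins and carry their cargo into endosomes for antigen presentation. Some of them signal through Syk by way of an activating motif, their own or that of the Fc receptor gamma chain, and others recruit phosphatases through an inhibitory motif. In mouse tissues several of them are used to recognise cDC2s and monocyte-derived cells, whereas Batf3, an AP-1 family factor, and Id2, an inhibitor of E proteins, are needed for the development of the cDC1 lineage.

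Of the 10 genes, 8 had a promoter window in RefSeq (mouse build GRCm38.p6), each running from 250 bases before the annotated start to 50 bases after it. The windows were searched on both strands for GGAA and GAAA with 2 bases between them, a composite element of Ets and interferon regulatory factors, for TGANTCA, an AP-1 element, and for CANNTG, the E-box bound by E proteins. The composite was found in Cd209a, Cd209d, Cd209e and Clec7a, while 2.72% of all 32851 promoter windows of this length hold it. Those 4 windows are shown because they share it, each on the minus strand: Cd209a at chr8:3748935-3749234, Cd209d at chr8:3878450-3878749, Cd209e at chr8:3854237-3854536 and Clec7a at chr6:129472730-129473029. They are written 5′ to 3′ in the direction of the gene, with every match to any of the motifs in capitals.
Cd209a: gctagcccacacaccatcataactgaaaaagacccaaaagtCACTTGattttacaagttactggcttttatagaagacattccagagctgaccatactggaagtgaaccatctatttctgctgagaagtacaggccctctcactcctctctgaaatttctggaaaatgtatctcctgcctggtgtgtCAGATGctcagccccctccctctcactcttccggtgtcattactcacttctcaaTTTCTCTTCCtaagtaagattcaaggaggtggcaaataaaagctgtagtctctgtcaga
Cd209d: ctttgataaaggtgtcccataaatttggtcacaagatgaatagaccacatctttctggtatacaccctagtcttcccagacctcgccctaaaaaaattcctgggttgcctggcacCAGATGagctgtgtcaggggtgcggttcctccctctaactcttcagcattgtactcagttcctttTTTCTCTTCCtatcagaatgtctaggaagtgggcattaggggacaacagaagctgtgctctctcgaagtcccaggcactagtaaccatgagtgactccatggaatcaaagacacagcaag
Cd209e: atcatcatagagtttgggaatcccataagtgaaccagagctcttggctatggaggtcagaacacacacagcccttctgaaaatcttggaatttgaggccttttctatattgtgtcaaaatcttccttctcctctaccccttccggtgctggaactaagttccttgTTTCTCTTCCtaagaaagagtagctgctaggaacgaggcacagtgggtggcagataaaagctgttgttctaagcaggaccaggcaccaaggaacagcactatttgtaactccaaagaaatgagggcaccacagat
Clec7a: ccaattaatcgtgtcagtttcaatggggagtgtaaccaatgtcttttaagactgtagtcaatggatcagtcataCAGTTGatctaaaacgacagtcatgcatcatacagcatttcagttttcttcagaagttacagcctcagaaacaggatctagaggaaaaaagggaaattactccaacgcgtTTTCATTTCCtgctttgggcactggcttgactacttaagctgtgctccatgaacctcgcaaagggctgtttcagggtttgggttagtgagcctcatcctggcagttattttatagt
In the 3 Cd209 genes the composite was written with the same letters, TTTCTCTTCC, at positions -9 to 0 in Cd209a, -70 to -61 in Cd209d and -85 to -76 in Cd209e, counting the annotated start as 0. Clec7a held TTTCATTTCC at -66 to -57. The Cd209 spelling TTTCTCTTCC, on either strand, occurred in 0.432% of all windows; it was searched after the match had been seen. The Cd209d and Cd209e windows were 54.8% identical, and the Cd209a window was 44.8% and 42.3% identical to them. All other pairs among the 8 genes lay between 41.2% and 48.8%. The 3 Cd209 genes are neighbours in 1 family, so the shared spellings were not taken as independent occurrences. E-box letters were found in every matched gene except Cd209e and in 72.3% of all windows, and the AP-1 letters only in Clec4a2 among the 8 genes and in 7.81% of all windows. A match describes letters in a window and does not show that a factor binds there.

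Values are log2 of the deposited signal. The replicate 1 arrays of the 3 Zbtb46-GFP+ groups had a median signal between 23.8 and 24.1, whereas that of the remaining 12 arrays lay between 100.8 and 112.1, and between 59.4% and 71.7% of their probe sets held identical values in pairs. They were kept out of the tests and are given apart. On the 12 arrays Batf3 averaged 7.10, 8.29 and 9.92 in Batf3 KO, Id2 KO and WT Zbtb46-GFP+ cells, and Id2 averaged 11.35, 8.61 and 11.74 in the same order of groups. In this gate each targeted gene was thus lowest in its own knockout. In CDPs Batf3 averaged 7.11, 7.05 and 7.14 in that order, so its signal did not set Batf3 KO apart there. Id2 averaged 7.79, 6.52 and 7.54 in CDPs, and its mean in Id2 KO Zbtb46-GFP+ cells was above that of WT CDPs. Xist averaged 5.49 and 5.57 in Batf3 KO and Id2 KO against 12.10 in WT Zbtb46-GFP+ cells, with the same split in CDPs; the sex of the cells and the genotype cannot be told apart on these arrays, and the Batf3 KO replicate 1 array had the WT pattern of Xist (11.02). Zbtb46 itself was lower in Batf3 KO and Id2 KO than in WT cells of that gate, with log2 differences of -1.08 and -1.06. Between CDPs and Zbtb46-GFP+ cells it changed by 0.15 in Batf3 KO, 0.20 in Id2 KO and 1.08 in WT. The adjusted p values were 0.739, 0.656 and 0.000636 (limma), so the transcript of the sort gene was not shown to rise in either knockout.

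The first question was which lectin genes rose between the CDP and the Zbtb46-GFP+ cell, and whether that held without Batf3 or Id2. Cd209a, which encodes a mouse relative of human DC-SIGN, Cd209e, Clec4a3 and Clec4b1 rose in all 3 genotypes, and Cd209d and Clec4a2 rose in some. Mgl2, Clec10a, Clec4n and Clec7a passed the test in none. Tests were made with limma, and a gene was counted where its Benjamini-Hochberg adjusted p over all genes was under 0.05. Of the 10, 6 passed in Batf3 KO (7.18% of all genes in either direction), 5 in Id2 KO (6.82%) and 5 in WT cells (11.1%), all higher in Zbtb46-GFP+ cells. The members' median log2 change was 1.92, 1.42 and 0.92 in Batf3 KO, Id2 KO and WT cells, against all-gene medians of 0.01, 0.01 and 0.03. In sorted bulk RNA a larger share of cells expressing a gene and more RNA per cell cannot be told apart.

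**Figure D1:**
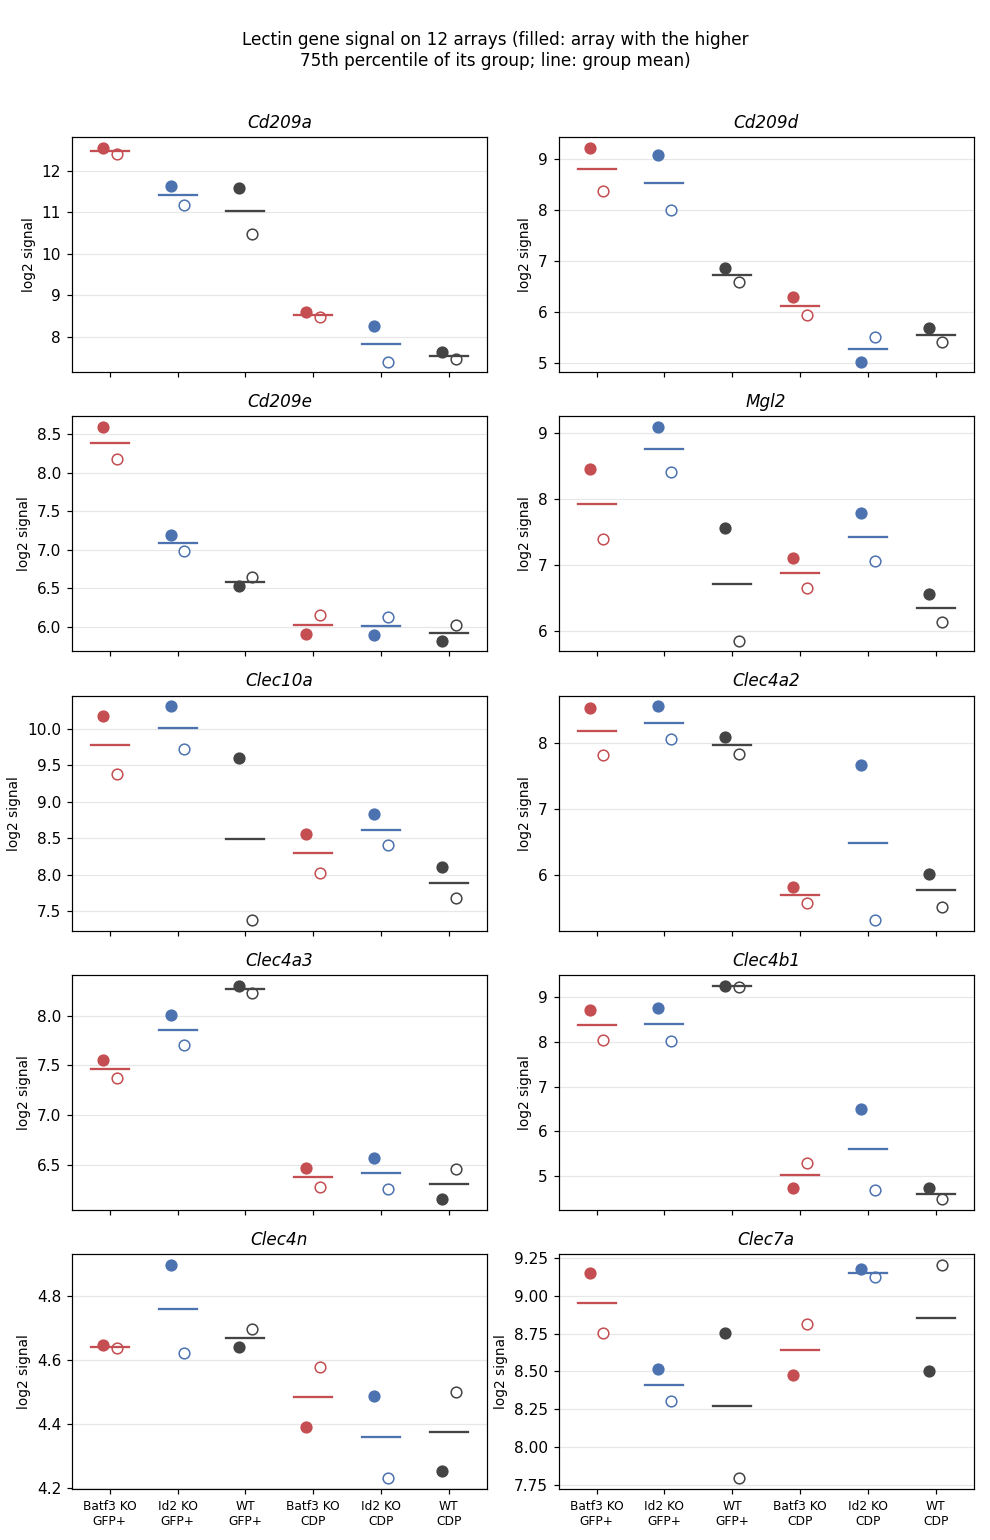
Log2 signal of the 10 lectin genes (vertical axes, scaled gene by gene) in the 6 groups along the horizontal axis, with 1 point per array and a line at each group mean. Filled points are the array of each group with the higher 75th percentile of signal. Cd209a lies above 10 on all Zbtb46-GFP+ arrays and below 9 on all CDP arrays, while the WT Zbtb46-GFP+ arrays of Clec10a stand 2.21 apart.

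Cd209a measured 12.56 and 12.42 in Batf3 KO cells, 11.65 and 11.18 in Id2 KO cells, and 10.49 and 11.58 in WT Zbtb46-GFP+ cells, against 8.59 and 8.46, 8.26 and 7.40, and 7.62 and 7.46 in the CDPs of the same genotypes. Every Zbtb46-GFP+ array lay above every CDP array. The rise was 3.96 ± 0.34 in Batf3 KO (log2, standard error, a 15.6-fold difference, adjusted p = 5.7e-05), 3.58 ± 0.34 in Id2 KO (12-fold, adjusted p = 0.000155) and 3.50 ± 0.34 in WT cells (11.3-fold, adjusted p = 6.94e-05). With any 1 of the 12 arrays left out it stayed between 2.95 and 4.04 in the 3 genotypes and passed the test each time. The order of its group means was the same at both stages, with Batf3 KO highest, Id2 KO next and WT lowest, and the Id2 KO and WT Zbtb46-GFP+ arrays overlapped.

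Cd209d, which encodes SIGNR3, a relative of Cd209a that recognises mycobacterial and fungal sugars in mice, measured 9.22 and 8.38 in Batf3 KO cells, 9.07 and 8.01 in Id2 KO cells, and 6.58 and 6.87 in WT Zbtb46-GFP+ cells. In CDPs it measured 6.30 and 5.94 in Batf3 KO cells, 5.03 and 5.51 in Id2 KO cells, and 5.69 and 5.41 in WT. Both knockouts therefore held Zbtb46-GFP+ arrays above every WT array, and all Zbtb46-GFP+ arrays lay above all CDP arrays. It rose by 2.68 ± 0.35 in Batf3 KO (adjusted p = 0.000893) and 3.27 ± 0.35 in Id2 KO (adjusted p = 0.000327); in WT cells the change was 1.17 ± 0.35 with an adjusted p of 0.0546. That WT value passed under 7 of 9 other settings, for example with each array centred on its 75th percentile (adjusted p = 0.0300).

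Cd209e, which encodes SIGNR4, measured 8.59 and 8.18 in Batf3 KO cells, 7.19 and 6.99 in Id2 KO cells, and 6.64 and 6.53 in WT Zbtb46-GFP+ cells, against 5.90 and 6.15, 5.89 and 6.12, and 5.81 and 6.02 in CDPs of the same genotypes. The CDP arrays of the 3 genotypes overlapped, and the Zbtb46-GFP+ groups were separate from each other and from the CDPs. The rise was 2.36 ± 0.17 in Batf3 KO (5.14-fold, adjusted p = 2.06e-05), 1.08 ± 0.17 in Id2 KO (2.12-fold, adjusted p = 0.00329) and 0.67 ± 0.17 in WT cells (1.59-fold, adjusted p = 0.0294). The WT call was lost when either CDP array was left out (adjusted p = 0.201 without replicate 1 and 0.0540 without replicate 2) or either Zbtb46-GFP+ array (0.129 without replicate 2 and 0.0735 without replicate 3). It was also lost with arrays centred on the 75th percentile (0.0702) and with all 15 arrays and a term for the 3 replicate 1 arrays (0.0810).

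The Dectin-2 and DCIR cluster on chromosome 6 gave 4 of the members. Clec4b1 encodes DCAR, an activating receptor that pairs with the Fc receptor gamma chain. It measured 8.71 and 8.03 in Batf3 KO cells, 8.76 and 8.02 in Id2 KO cells, and 9.24 and 9.26 in WT Zbtb46-GFP+ cells, and 4.74 and 5.29, 6.51 and 4.68, and 4.73 and 4.48 in the matching CDPs. The stages did not overlap in any genotype, and Id2 KO CDP replicate 1 stood above the other CDP arrays. Its rise was 3.36 ± 0.48 in Batf3 KO (adjusted p = 0.00151), 2.80 ± 0.48 in Id2 KO (adjusted p = 0.00505) and 4.64 ± 0.48 in WT cells, a 25-fold difference (adjusted p = 0.000109). The Id2 KO call was lost without Id2 KO Zbtb46-GFP+ replicate 2 (adjusted p = 0.0653).

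Clec4a3 encodes DCIR3, a relative of the inhibitory receptor DCIR. It measured 7.55 and 7.37 in Batf3 KO cells, 8.0 and 7.70 in Id2 KO cells, and 8.23 and 8.30 in WT Zbtb46-GFP+ cells, while the 6 CDP arrays lay between 6.15 and 6.57. Its rise was 1.09 ± 0.17 in Batf3 KO (adjusted p = 0.00243), 1.44 ± 0.17 in Id2 KO (adjusted p = 0.000582) and 1.96 ± 0.17 in WT cells (adjusted p = 3.04e-05). Among the 10 genes Clec4a3 and Clec4b1 were the ones with their highest group mean in WT Zbtb46-GFP+ cells.

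Clec4a2 encodes DCIR1, which carries an inhibitory motif in its tail. It measured 8.53 and 7.82 in Batf3 KO cells, 8.55 and 8.05 in Id2 KO cells, and 7.83 and 8.09 in WT Zbtb46-GFP+ cells, and 5.81 and 5.57, 7.66 and 5.32, and 6.02 and 5.52 in the matching CDPs. The 3 genotypes overlapped after the step, and Id2 KO CDP replicate 1 lay close to the Zbtb46-GFP+ arrays. The rise was 2.48 ± 0.56 in Batf3 KO (adjusted p = 0.0213) and 2.19 ± 0.56 in WT cells (adjusted p = 0.0283); in Id2 KO the change was 1.81 ± 0.56 with an adjusted p of 0.0874. The Id2 KO value became 2.98 (adjusted p = 0.000838) without Id2 KO CDP replicate 1. Leaving out any 1 of the Batf3 KO arrays ended the Batf3 KO call (adjusted p 0.0527 to 0.136), and any 1 of the WT arrays ended the WT call (0.0788 to 0.124).

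Clec4n encodes Dectin-2, the receptor for fungal alpha-mannans that signals through the Fc receptor gamma chain. It stayed between 4.23 and 4.90 on all 12 arrays, and its step was 0.16 in Batf3 KO, 0.40 in Id2 KO and 0.29 in WT cells, with adjusted p of 0.754, 0.177 and 0.297. Its interval in WT cells ran from -0.04 to 0.63. On the linear scale Clec4n had a signal of 18.8 to 29.8, where the array medians were 100.8 to 112.1. A gene this dim may not have been expressed, so its small changes say little.

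Mgl2 and Clec10a, the neighbouring chromosome 11 genes for the galactose-type lectins CD301b and CD301a, gave higher means in Zbtb46-GFP+ cells without passing. Clec10a measured 10.17 and 9.39 in Batf3 KO cells, 10.31 and 9.72 in Id2 KO cells, and 7.38 and 9.60 in WT Zbtb46-GFP+ cells, and 8.57 and 8.03, 8.84 and 8.40, and 8.11 and 7.68 in the matching CDPs. The knockout stages did not overlap, but WT Zbtb46-GFP+ replicate 2 lay below both WT CDP arrays. The step was 1.48 in Batf3 KO (adjusted p = 0.171), 1.39 in Id2 KO (adjusted p = 0.211) and 0.60 in WT cells (95% interval -0.63 to 1.83, adjusted p = 0.609), and the WT step of Clec10a became 1.70 (adjusted p = 0.0180) without WT Zbtb46-GFP+ replicate 2 and -0.51 (adjusted p = 0.439) without replicate 3. With either of those WT arrays left out, and so with another estimate of the spread, the unmoved knockout steps of Clec10a passed (adjusted p = 0.0145 in Batf3 KO and 0.0208 in Id2 KO). Mgl2 measured 8.45 and 7.40 in Batf3 KO cells, 9.08 and 8.41 in Id2 KO cells, and 5.86 and 7.57 in WT Zbtb46-GFP+ cells, with 7.11 and 6.66, 7.78 and 7.06, and 6.56 and 6.13 in the matching CDPs. Again WT Zbtb46-GFP+ replicate 2 fell below the WT CDPs, and the step was 1.04, 1.32 and 0.36 in Batf3 KO, Id2 KO and WT cells with adjusted p of 0.333, 0.188 and 0.743.

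Clec7a encodes Dectin-1, the beta-glucan receptor that signals through Syk and Card9. It measured 9.15 and 8.76 in Batf3 KO cells, 8.51 and 8.31 in Id2 KO cells, and 7.79 and 8.75 in WT Zbtb46-GFP+ cells, against 8.47 and 8.81, 9.18 and 9.13, and 8.50 and 9.21 in the matching CDPs. The stages overlapped in Batf3 KO and WT, and both Id2 KO Zbtb46-GFP+ arrays lay below the Id2 KO CDP arrays. Its step was 0.31 in Batf3 KO (interval -0.36 to 0.97), -0.74 in Id2 KO (-1.41 to -0.08) and -0.58 in WT cells (-1.25 to 0.08), with adjusted p of 0.755, 0.220 and 0.300. The WT value was -1.06 (adjusted p = 0.0485) without WT Zbtb46-GFP+ replicate 3 and -0.10 (adjusted p = 0.950) without replicate 2.

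Markers of other cell types also moved between the stages. Of 13 monocyte and macrophage markers, 5 rose and 2 fell in Batf3 KO, 4 rose and 2 fell in Id2 KO, and 4 rose and 2 fell in WT cells. Fcgr4, an Fc receptor gene, rose by 1.65, 1.86 and 2.53 in that order of genotypes, and F13a1 had changes of -2.92, -2.50 and -4.13. Of 15 neutrophil markers, 4 rose and 3 fell in each knockout, and 0 rose and 5 fell in WT cells. S100a8, which encodes a calcium-binding protein abundant in neutrophils, rose by 2.69 in Batf3 KO and 2.27 in Id2 KO, while Mpo, the myeloperoxidase gene, had changes of -3.15, -2.52 and -5.02. Of 13 plasmacytoid dendritic cell markers, 3 rose in Batf3 KO, 9 in Id2 KO and 3 in WT cells, where 1 fell. Summed over the neutrophil markers, the signal in Batf3 KO, Id2 KO and WT Zbtb46-GFP+ cells was 23714 to 32268, 44023 to 45204 and 17353 to 18521, against 23143 to 24979, 27920 to 39830 and 25980 to 29202 in the matching CDPs. The plasmacytoid sums were 14050 to 18664, 25341 to 27389 and 10979 to 13987 in Zbtb46-GFP+ cells, against 14008 to 16730, 11454 to 12804 and 9735 to 13375 in CDPs. The monocyte sums were 8475 to 9754, 8835 to 9117 and 8704 to 8928 in Zbtb46-GFP+ cells, against 8285 to 8326, 8704 to 10093 and 7959 to 8102 in CDPs. At most 1 B cell marker of 9 and 1 T and NK cell marker of 9 passed in each direction in any genotype, and 0 of 6 erythroid and megakaryocyte markers. The part of these markers in the lectin steps was not tested.

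**Figure D2:**
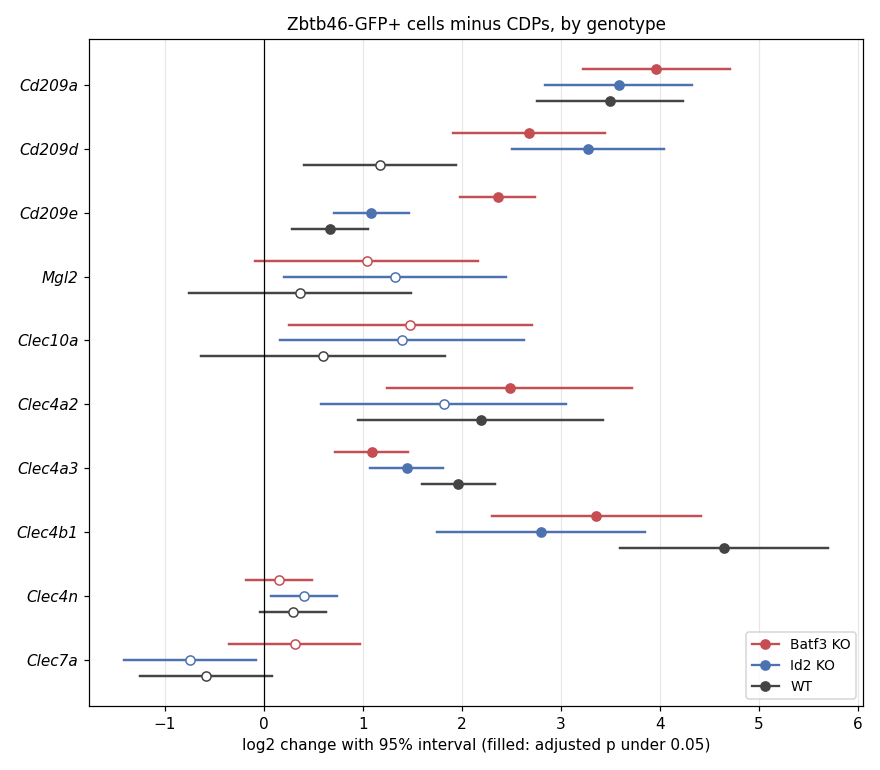
Log2 change between Zbtb46-GFP+ cells and CDPs (horizontal axis) for each lectin gene, with 95% intervals, in Batf3 KO, Id2 KO and WT cells; filled points passed an adjusted p of 0.05. Cd209a lies between 3.50 and 3.96 in the 3 genotypes, and Cd209e spreads between 0.67 in WT and 2.36 in Batf3 KO.

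The second question was how these genes differed between Batf3 KO or Id2 KO and WT within Zbtb46-GFP+ cells. Sex, and for Batf3 KO the kind of host, cannot be told apart from genotype in these differences. Cd209d was higher than in WT in both knockouts, and Cd209e was higher in Batf3 KO. Of the 10 genes, 2 passed in Batf3 KO against WT (0.336% of all genes, 67 of 19938) and 1 in Id2 KO against WT (1.81%, 361 genes), all higher in the knockout. Because both comparisons use the same WT arrays, they are not independent of each other. Groups of 2 arrays each can separate without a true difference, and the share of all genes that did so was not counted. A lack of overlap, above or below, therefore describes the arrays and is not support for a difference. Neither Clec4a3 nor Clec4b1, which had lower means in both knockouts, passed.

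From the array values given above, Cd209d averaged 8.80 ± 0.60 in Batf3 KO and 8.54 ± 0.75 in Id2 KO against 6.72 ± 0.21 in WT Zbtb46-GFP+ cells (SD, 2 arrays each). The differences were 2.07 ± 0.35 for Batf3 KO (4.21-fold, adjusted p = 0.0341, limma) and 1.82 ± 0.35 for Id2 KO (3.52-fold, adjusted p = 0.0227, limma). The Batf3 KO call was lost without WT Zbtb46-GFP+ replicate 2 (0.171), WT Zbtb46-GFP+ replicate 3 (0.113) or Batf3 KO Zbtb46-GFP+ replicate 2 (0.374), and without some single CDP arrays, for which the adjusted p was 0.0505 to 0.0581. The Id2 KO call was lost without WT Zbtb46-GFP+ replicate 2 (0.122) or replicate 3 (0.0676) or Id2 KO Zbtb46-GFP+ replicate 2 (0.222). On the replicate 1 arrays Cd209d measured 5.75 in Batf3 KO, 6.29 in Id2 KO and 5.39 in WT, and with these arrays added and given a term of their own the adjusted p was 0.256 for Batf3 KO and 0.0719 for Id2 KO.

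Cd209e averaged 8.39 ± 0.30 in Batf3 KO and 7.09 ± 0.15 in Id2 KO against 6.58 ± 0.08 in WT Zbtb46-GFP+ cells. The Batf3 KO difference was 1.80 ± 0.17 (3.49-fold, adjusted p = 0.000512, limma) and passed with each array left out (adjusted p 0.000951 to 0.00891). The Id2 KO difference was 0.51 ± 0.17 (adjusted p = 0.267) with groups that did not overlap, and it passed with quantile normalization (0.53, adjusted p = 0.0314). On the replicate 1 arrays Cd209e measured 4.64 in Batf3 KO, 4.60 in Id2 KO and 4.64 in WT, and 71.7% of all probe sets were identical between the Batf3 KO and WT arrays of that replicate, Cd209e among them. With those arrays added under their own term the adjusted p for Batf3 KO was 0.247.

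The difference of Cd209a between Batf3 KO and WT was 1.45 ± 0.34 and did not pass (adjusted p = 0.188), with groups that did not overlap. Without WT Zbtb46-GFP+ replicate 3 the difference was 2.00 (adjusted p = 0.0319), and without WT Zbtb46-GFP+ replicate 2 it was 0.91 (adjusted p = 0.643). In Id2 KO the Cd209a difference was 0.38 (interval -0.36 to 1.12) and the groups overlapped. The replicate 1 arrays gave 7.50 in Batf3 KO, 6.86 in Id2 KO and 6.80 in WT for Cd209a.

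**Figure D3:**
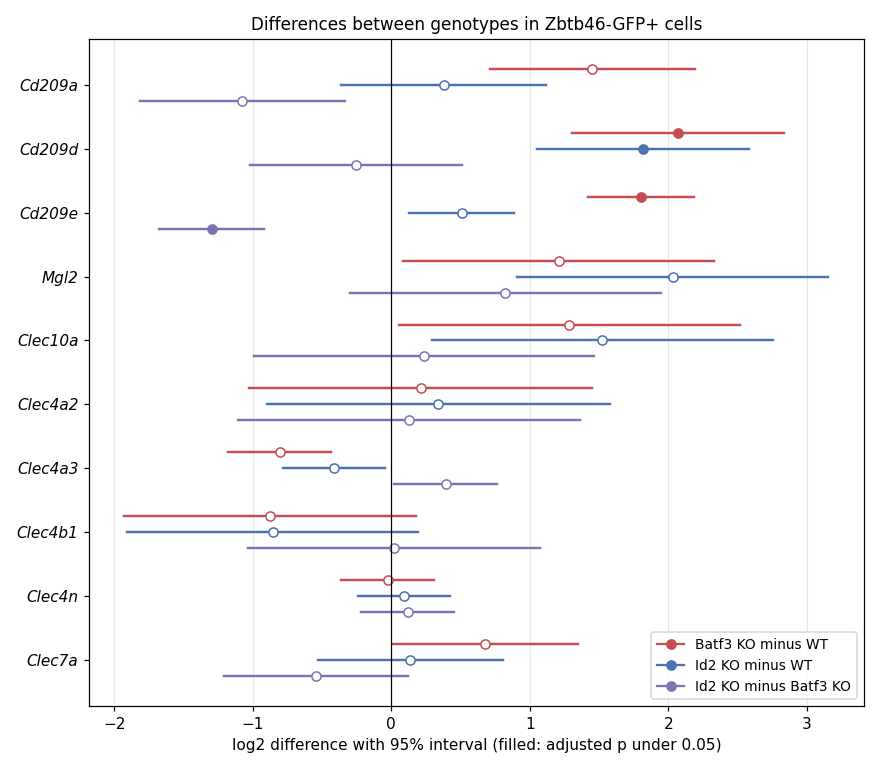
Log2 differences between genotypes in Zbtb46-GFP+ cells (horizontal axis) with 95% intervals for each lectin gene: Batf3 KO minus WT, Id2 KO minus WT, and Id2 KO minus Batf3 KO. Filled points passed an adjusted p of 0.05; these are Cd209d and Cd209e for Batf3 KO (2.07 and 1.80), Cd209d for Id2 KO (1.82), and Cd209e between the knockouts (-1.30).

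For Mgl2 the difference from WT was 2.03 ± 0.51 in Id2 KO (adjusted p = 0.0861) and 1.21 in Batf3 KO (interval 0.09 to 2.33, adjusted p = 1.00). For Clec10a it was 1.52 ± 0.56 in Id2 KO (adjusted p = 0.336) and 1.29 in Batf3 KO (interval 0.06 to 2.52, adjusted p = 1.00). The Id2 KO arrays of both genes lay above the WT arrays, and the Batf3 KO arrays overlapped them. The 2 WT arrays stood apart, and the values moved with the one left out. Without WT Zbtb46-GFP+ replicate 3 the Id2 KO difference was 2.89 for Mgl2 (adjusted p = 0.0140) and 2.63 for Clec10a (adjusted p = 0.0083), and the Batf3 KO difference of Clec10a was 2.39 (adjusted p = 0.0336). Without WT Zbtb46-GFP+ replicate 2 the Id2 KO difference was 1.18 for Mgl2 (adjusted p = 0.388) and 0.42 for Clec10a (adjusted p = 0.997), and the Batf3 KO difference of Clec10a was 0.18 (adjusted p = 1.00). On the replicate 1 arrays Mgl2 read 3.47 and Clec10a 3.80 in all 3 genotypes.

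For Clec4a3 the difference from WT was -0.81 ± 0.17 in Batf3 KO (adjusted p = 0.112) and -0.41 in Id2 KO (adjusted p = 0.427). The Batf3 KO value passed with quantile normalization (-0.91, adjusted p = 0.0331) and with a block for the array of each group that had the higher 75th percentile of signal (adjusted p = 0.0157). For Clec4b1 it was -0.88 in Batf3 KO (interval -1.93 to 0.18) and -0.86 in Id2 KO (interval -1.91 to 0.19). For both genes every knockout array lay below both WT arrays. On the replicate 1 arrays Clec4a3 read 6.66 in Batf3 KO and 6.74 in Id2 KO against 5.43 in WT, and Clec4b1 read an identical 6.82 in all 3. Clec4a2, Clec4n and Clec7a differed by -0.03 to 0.68 in Batf3 KO and by 0.09 to 0.34 in Id2 KO, none passing; the Clec7a arrays of Batf3 KO lay just above those of WT.

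Markers of other cell types moved with the genotype in the same arrays. The summed signal of the neutrophil markers, given above, was higher on every knockout array than on the WT Zbtb46-GFP+ arrays. Of the 15, 2 were higher in Batf3 KO (Prtn3 1.44, Csf3r 1.11) and 3 in Id2 KO (Elane 2.32, Prtn3 1.90, Ctsg 1.37). Prtn3, Elane and Ctsg were also genes that fell between CDPs and Zbtb46-GFP+ cells in WT (-3.97, -2.02 and -4.71). S100a8, Camp and Ngp did not pass between either knockout and WT. Of the plasmacytoid dendritic cell markers, 8 of 13 were higher in Id2 KO, led by Ly6d (4.03) and Siglech (3.06). For 16 cDC1 markers the sums were 19006 to 20410 in Batf3 KO and 15969 to 16328 in Id2 KO against 36104 to 40755 in WT, with 9 of 16 lower in Batf3 KO and 12 of 16 in Id2 KO. The sums over 13 monocyte and macrophage markers overlapped, with Adgre1 (1.56) and F13a1 (1.09) higher in Batf3 KO and F13a1 (1.86) and Csf1r (1.15) higher and Ccr2 lower (-0.87) in Id2 KO. No probe set was at 0 on any array, and the part of these shifts in the lectin differences was not tested. None of the measured B cell (9) or erythroid and megakaryocyte (6) markers passed in either knockout, and 2 of 9 T and NK cell markers were higher in Id2 KO (Nkg7 1.42, Cd8b1 1.19).

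Set against each other, the knockouts differed in 1 lectin gene, where 0.592% of all genes passed. Cd209e was lower in Id2 KO than in Batf3 KO by 1.30 on the log2 scale (change -1.30 ± 0.17, adjusted p = 0.0073), and no arrays overlapped. That call was lost without Batf3 KO Zbtb46-GFP+ replicate 2 (adjusted p = 0.0598) or Id2 KO Zbtb46-GFP+ replicate 3 (0.0871), and with the replicate 1 arrays added under their own term (0.426). Cd209a had a change of -1.08 (interval -1.82 to -0.33, adjusted p = 0.377) with separate groups. For Cd209d the change was -0.26 (interval -1.02 to 0.51), for Clec10a 0.24 (-0.99 to 1.47) and for Mgl2 0.82 (-0.30 to 1.95); these intervals leave room for differences of either sign.

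The difference between the steps of a knockout and of WT tests whether a difference between genotypes depends on the stage. Cd209e passed for Batf3 KO (0.0953% of all genes did), with a step larger by 1.69 ± 0.24 than in WT (adjusted p = 0.0340). This was lost after centring arrays on the 75th percentile (adjusted p = 0.408) and with the replicate 1 arrays under their own term (1.00), and its adjusted p ran between 0.0350 and 0.242 over the single arrays left out, 8 of 12 of which ended the call. For Batf3 KO 3 of the 10 had an unadjusted p under 0.05, as did 383 of all 19938 genes. Cd209d was among the 3, with a step larger by 1.51 ± 0.49 than in WT (interval 0.43 to 2.59), and did not pass. For Id2 KO none of the 10 passed (2 had an unadjusted p under 0.05, and 0.321% of all genes passed). Those 2 were Cd209d, whose step was larger by 2.10 ± 0.49 (adjusted p = 0.156), and Clec4b1, with -1.85 ± 0.67 (adjusted p = 0.691), which became -2.76 (adjusted p = 0.0413) without Id2 KO CDP replicate 2.

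In CDPs none of the 10 genes passed for Batf3 KO against WT, where 1 had an unadjusted p under 0.05 and 0.0502% of all genes passed. That gene was Cd209a, 8.59 and 8.46 in Batf3 KO against 7.62 and 7.46 in WT, a difference of 0.98 (interval 0.24 to 1.73, adjusted p = 1.00). None passed for Id2 KO against WT and none had an unadjusted p under 0.05 (0.0251% of all genes passed); the differences ran from -0.29 for Cd209d to 1.07 for Mgl2 (interval -0.05 to 2.20).

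Arrays of 1 group differed in a common direction for some of these genes. In each group 1 array had the higher 75th percentile of signal: replicate 1 of the CDPs, replicate 2 of the knockout Zbtb46-GFP+ cells and replicate 3 of the WT Zbtb46-GFP+ cells. Cd209a, Mgl2, Clec10a and Clec4a2 were higher on that array in 6 of 6 groups, with median gaps of 0.31, 0.70, 0.56 and 0.50, and 17.3% of all genes were. In WT Zbtb46-GFP+ cells the gap was 2.21 for Clec10a, 1.71 for Mgl2 and 1.09 for Cd209a, and in Id2 KO CDPs 2.34 for Clec4a2 and 1.82 for Clec4b1. Cd209e was higher on that array in 2 of 6 groups. With these sets of arrays as a block, 5 lectin genes passed for Batf3 KO against WT in Zbtb46-GFP+ cells, where 1.25% of all genes did (250 genes). They were Cd209a (adjusted p = 0.00604), Cd209d, Cd209e and Mgl2 (0.0373), which were higher, and Clec4a3, which was lower. For Id2 KO against WT 3 passed, where 6.08% of all genes did (1212 genes): Cd209d, Mgl2 (0.000416) and Clec10a (0.0194), all higher. Without the block 67 and 361 of all genes passed for Batf3 KO and Id2 KO. The block was set from the signal of the same arrays, so these added calls are not separate support for a difference.

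**Figure D4:**
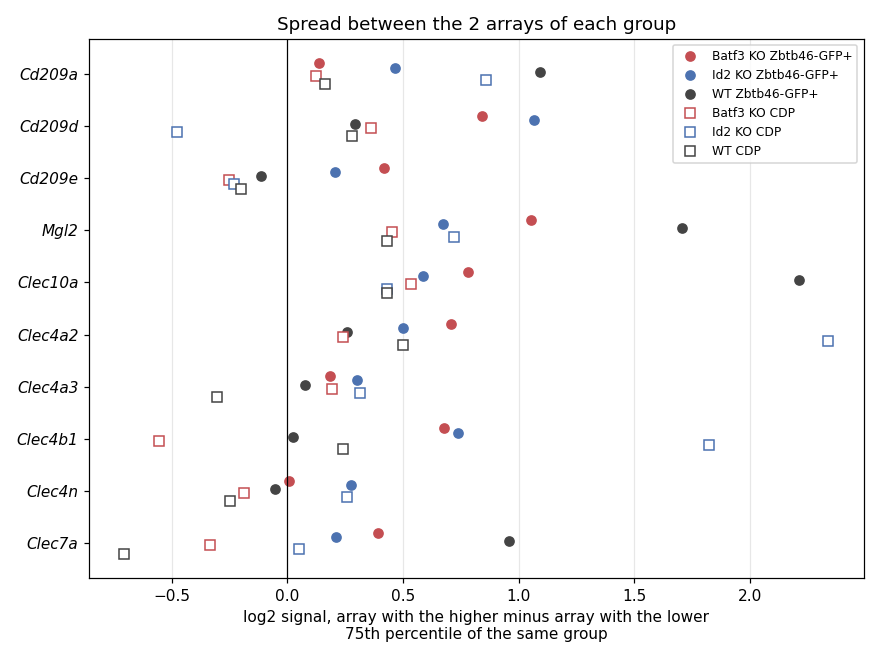
Log2 signal on the array with the higher 75th percentile minus the other array of its group (horizontal axis), for each lectin gene in the 6 groups. Points for Clec10a and Mgl2 in WT Zbtb46-GFP+ cells reach 2.21 and 1.71, and those of Cd209e lie on both sides of 0.

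The other genes of the same lectin families, listed apart from the 10, were described by the same fit. Of 4 further Cd209 genes measured, Cd209c rose by 1.88 in Batf3 KO and 1.62 in Id2 KO (adjusted p = 0.0139 and 0.0315), with a change of 0.98 in WT cells, and Cd209b, Cd209f and Cd209g had changes of -0.04 to 0.38. Among 5 further genes of the Dectin-2 and DCIR cluster, Clec4a1 rose by 2.98, 1.49 and 2.16 in Batf3 KO, Id2 KO and WT cells, and Clec4a4 (0.79) and Clec4b2 (0.89) rose in WT cells. Probes of such closely related genes can bind each other's transcripts, and the extent of that here was not tested. Of 7 neighbours of Clec7a, Clec9a, a cDC1 receptor for dead cells, rose in Batf3 KO (0.60) and WT (1.73) and was lower in Batf3 KO (-1.01) and Id2 KO (-1.72) than in WT Zbtb46-GFP+ cells, and Clec12a fell in Batf3 KO (-0.82) and Id2 KO (-0.76). Olr1, a scavenger receptor, rose by 0.67 in Batf3 KO and 0.88 in Id2 KO. Of 14 other endocytic lectins, Ly75 (DEC-205) rose in WT cells (1.37), Clec4g rose in Batf3 KO (1.15) and Id2 KO (0.97), and Siglech, a receptor of plasmacytoid dendritic cells, rose in Id2 KO (2.02).

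**Figure D5:**
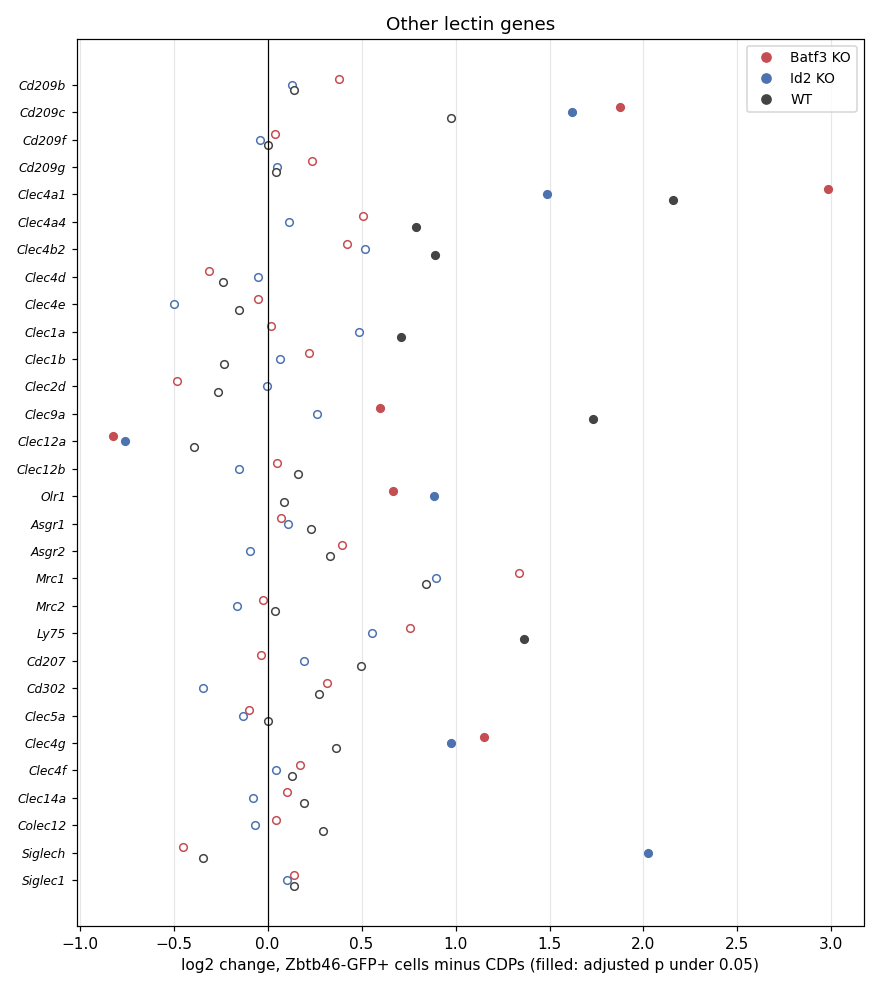
Log2 change between Zbtb46-GFP+ cells and CDPs (horizontal axis) for 30 other lectin genes in Batf3 KO, Id2 KO and WT cells; filled points passed an adjusted p of 0.05. Clec4a1 passes in all 3 genotypes (2.98, 1.49 and 2.16) and Cd209c in the 2 knockouts.

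Of 21 measured genes that carry Syk-coupled lectin signals, 4 rose in Batf3 KO, 7 in Id2 KO and 5 in WT cells, and none fell; of all genes 7.18%, 6.82% and 11.1% passed in either direction in the same steps. Fgr, a Src family kinase, rose by 2.32, 3.41 and 2.39, and Nfatc2 by 1.56, 1.33 and 1.59, in that order of genotypes. The list median was 0.15, 0.34 and 0.12. Of 4 phosphatases that bind inhibitory motifs, Inppl1 rose in Batf3 KO (0.67) and Id2 KO (0.74) and Ptpn6 in Id2 KO (0.53). Of 16 factors and receptors linked to cDC2 development, 5 rose and 1 fell in Batf3 KO, 5 rose and 1 fell in Id2 KO, and 7 rose and 2 fell in WT cells. Irf4 rose by 3.39, 3.21 and 2.48, Notch2 by 1.21, 1.14 and 1.25 and Relb by 1.40, 1.12 and 1.23, while Csf1r fell in all 3, by 0.85 in Id2 KO and 2.03 in WT cells on the log2 scale. None of these 16 passed between Batf3 KO and WT Zbtb46-GFP+ cells, and Zeb2 (1.32) and Csf1r (1.15) were higher in Id2 KO. The 16 other cDC2 markers had summed signals of 21373 to 24525 in Batf3 KO, 28751 to 29143 in Id2 KO and 14616 to 21106 in WT Zbtb46-GFP+ cells. Such a sum is weighted to bright genes. In that gate 0 of the 16 passed between Batf3 KO and WT, where 0.336% of all genes did. Between Id2 KO and WT 3 were higher and 1, Ccr2, was lower in Id2 KO, where 1.81% of all genes passed. Between the stages 6 of these 16 markers rose and 1 fell in Batf3 KO, and 7 rose and 1 fell in Id2 KO. In WT cells 6 rose and 2 fell. Ltb (1.95 in Batf3 KO, 1.68 in WT) and Itgam (1.99 in Batf3 KO, 1.90 in Id2 KO) were among those that rose. Of the 16 cDC1 markers, 5 rose between the stages in Batf3 KO, 6 in Id2 KO and 14 in WT cells.

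Across the 12 arrays several members followed each other. Pearson's r of log2 signal was 0.96 between Mgl2 and Clec10a, 0.96 between Clec4a3 and Clec4b1, 0.94 between Clec4a2 and Clec4b1, 0.91 between Cd209a and Cd209d and 0.90 between Cd209d and Cd209e. Cd209a also had r of 0.90 with Clec4b1, 0.88 with Clec4a2 and 0.88 with Cd209e, so these values did not separate the Cd209 genes from the Clec4 genes. Clec7a had r of -0.48 to 0.16 with the others. These values describe 12 arrays that share stage, genotype and array set, and are not tests. Among all other genes at or above the median signal, those most like Cd209a were Lrrfip2 (0.99), Pacs2 (0.98) and Il13ra1 (0.98), and those most like Cd209e were Hpgd (0.97), Rsad2 (0.96) and Bmpr2 (0.93). Lyz2, a lysozyme gene of myeloid cells, was the gene most like Clec4a2 (0.98), Arhgap22 most like Clec4a3 (0.98), Olfm1 most like Clec4b1 (0.98), and Wbp2 most like Cd209d (0.96). Relt was the gene most like both Clec10a (0.95) and Mgl2 (0.93), Gngt2 the one most like Clec4n (0.92), and Psme3ip1 the one most like Clec7a (0.86).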

How the data were processed

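Log2 was taken of the deposited intensity, which is linear probe set signal after RMA in Affymetrix Expression Console per the submitters' processing notes. Versions, settings and the genome build of that step are not given in the sources used here. Per the labels' protocols, biotinylated cDNA was made from total RNA of sorted cells. Of 28853 probe sets, 21789 named 1 gene symbol, 1621 several and 5443 none; the probe set with the highest mean was kept per symbol, which gave 19938 genes, 19856 of them with a RefSeq name. The number of arrays limits the precision.

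Comparisons used limma 3.58.1 (statmod 1.5.0, R 4.3.3): 6 group means on 12 arrays, empirical Bayes without trend, two-sided, 6 residual degrees of freedom, Benjamini-Hochberg adjustment over all genes in each of 10 comparisons, threshold 0.05. The 3 replicate 1 arrays of Zbtb46-GFP+ cells were left out because of their scale. The members, the other gene lists and the tests were chosen with earlier results of these data known. All 10 members are named throughout. From each other list, the text names genes among the 4 called with the largest change in each direction, and, chosen after seeing their values, further lectins of the same families. The genes of like pattern are the 3 with the highest correlation, at or above the median signal. The fit was tested on simulated data, but the outcome is not given here and is no support for these results. Alternatives were all 15 arrays with and without a term for the 3, other normalizations, a filter on dim genes, all probe sets, a trended prior, 2 blocks and leaving out each array. Same-numbered arrays of different groups correlated between -0.63 and 0.68 in their deviations, over 0.1 in 11 of 21 pairs. With 2 arrays a group the deviations mirror each other, so some of these values are repeats. Among CDPs all were positive (0.53 to 0.68), and between the knockout Zbtb46-GFP+ groups the value was 0.48. Between WT and knockout Zbtb46-GFP+ cells the values were -0.55 and -0.42, so the numbers were not taken to pair samples over all groups. Promoter windows came from RefSeq on GRCm38.p6, and protein sequences were not used here.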

Additional observations from a re-analysis of the deposited data

Results flagged for a closer look

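The step between CDPs and Zbtb46-GFP+ cells was larger for Cd209e in Batf3 KO than in WT by 1.69 ± 0.24 on the log2 scale (limma, adjusted p = 0.0340), by a test of the difference between the 2 steps. The Batf3 KO step was 2.36 and the WT step 0.67. The value ran between 1.48 and 1.90 with each array left out, and the call was lost in 8 of these 12 fits (adjusted p up to 0.242), with 75th percentile centring (0.408) and with the replicate 1 arrays under a term of their own (1.00).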

How the results depend on the processing

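Of 100 values for the 10 lectin genes in the 10 comparisons, 21 passed the test; 13 of these passed with each array left out, 15 with all 15 arrays and a term for the 3 replicate 1 arrays, and none of the 21 changed direction under any alternative run. Over the single arrays left out, the number of lectin genes passing ran between 5 and 7 for the Batf3 KO step, 4 and 6 for the Id2 KO step, 3 and 6 for the WT step, 1 and 3 for Batf3 loss and 0 and 2 for Id2 loss in Zbtb46-GFP+ cells, 0 and 1 between the knockouts, 0 and 0 in CDPs, and 0 and 1 for each knockout by stage. The share of all genes passing also moved with the array left out. These counts are therefore not read as a result about the lectin genes. Shares of all genes in the main fits are given above with each comparison. With all 15 arrays as labelled 0 lectin genes passed anywhere, and of all 19938 genes 1 passed in the WT step and 0 elsewhere. Unadjusted p was then under 0.05 for 2, 2 and 1 lectin genes in the Batf3 KO, Id2 KO and WT steps and 0 elsewhere. Cd209a in the WT step then had 2.08 (limma, adjusted p = 0.767). With the term for the 3 arrays, 0 passed in Zbtb46-GFP+ cells between genotypes and 0 for Batf3 KO by stage. Unadjusted p was under 0.05 for 4 in Batf3 loss, 2 in Id2 loss, 2 between the knockouts and 1 in Batf3 KO by stage. Of all genes 0.145%, 1.04%, 0.512% and 0.0401% passed the adjusted test in that order. Centring on the 75th percentile gave 0 for Batf3 KO by stage (3 unadjusted), where 0.0602% of all genes passed. Id2 loss in Zbtb46-GFP+ cells gave 2 with quantile normalization and 3 with the array set block, where 3.36% and 6.08% of all genes passed. With the array set block Batf3 loss in Zbtb46-GFP+ cells gave 5, the Id2 KO step 8, Id2 KO against Batf3 KO 2 and Id2 KO by stage 1. Of all genes 250, 3234, 506 and 373 passed in that order (1212 for Id2 loss). The Batf3 KO step gained Mgl2 (limma, adjusted p = 0.0119) and Clec10a (0.0099), and the WT step gained Cd209d (0.00768). Of all genes 3487 and 4829 passed in the Batf3 KO and WT steps with that block. That block was set from the signal of the same arrays. In the check of pairing, same-numbered arrays went together among CDPs but not over all groups. With the replicate block the counts were 6, 6 and 6 for the 3 steps, 2, 1 and 1 in Zbtb46-GFP+ cells, 0 in CDPs, and 1 and 0 by stage.

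Values that had not passed changed sign as follows. With all 15 arrays as labelled the Batf3 KO step was -0.45 for Mgl2, -0.51 for Clec10a, -0.41 for Clec4n and -0.69 for Clec7a, the Id2 KO step -0.44, -0.68 and -0.12 for Mgl2, Clec10a and Clec4n, and the WT step -0.72, -0.97 and -0.24 for the same genes. With or without the term for the 3 arrays, Clec4a3 was 0.16 for Id2 loss and 0.0550 for Id2 KO by stage, Cd209d 0.0082 between the knockouts, and Cd209a -0.0163 for Id2 KO by stage (-0.0227 with centring). Quantile normalization gave 0.0037 for Clec4n in Batf3 loss in Zbtb46-GFP+ cells, 0.0004 for Clec4n in Id2 loss in CDPs and -0.0156 for Clec4b1 between the knockouts; centring gave -0.0216 for that last value, -0.0183 for Clec4n in Id2 loss in Zbtb46-GFP+ cells and -0.0034 for Clec4n in Id2 KO by stage. The cause was not tested.

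With single arrays left out, the ranges of values that changed sign were -0.49 to 1.22 (Mgl2) and -0.51 to 1.70 (Clec10a) for the WT step. For Batf3 loss in Zbtb46-GFP+ cells they were -0.14 to 0.57 (Clec4a2) and -0.0543 to 0.0012 (Clec4n), and for Id2 loss -0.17 to 0.92 (Cd209a), -0.0467 to 0.23 (Clec4n) and -0.34 to 0.62 (Clec7a). Between the knockouts they were -0.79 to 0.27 (Cd209d), -0.15 to 0.63 (Clec10a), -0.23 to 0.48 (Clec4a2), -0.35 to 0.39 (Clec4b1) and -0.0201 to 0.26 (Clec4n). In CDPs, Batf3 loss gave -0.0171 to 0.24 (Cd209e), -0.33 to 0.17 (Clec4a2), -0.0846 to 0.22 (Clec4a3), -0.0139 to 0.23 (Clec4n) and -0.56 to 0.14 (Clec7a), and Id2 loss -0.14 to 0.72 (Cd209a), -0.0259 to 0.21 (Cd209e), -0.45 to 1.89 (Clec4a2), -0.0491 to 0.27 (Clec4a3), -0.15 to 0.11 (Clec4n) and -0.0525 to 0.65 (Clec7a). By stage, Batf3 KO gave -0.0773 to 1.01 (Cd209a), -0.18 to 1.53 (Mgl2), -0.22 to 1.99 (Clec10a) and -0.0619 to 0.65 (Clec4a2), and Id2 KO -0.46 to 0.63 (Cd209a), -0.31 to 1.90 (Clec10a), -1.55 to 0.79 (Clec4a2), -0.0297 to 0.25 (Clec4n) and -0.64 to 0.32 (Clec7a). With 2 arrays a group, a group of 1 array was assumed to vary like the others.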

Other observations

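On the 3 replicate 1 arrays of Zbtb46-GFP+ cells, which entered no comparison, 3 of the 10 lectin genes (Mgl2, Clec10a and Clec4b1) had the same value in Batf3 KO, Id2 KO and WT. Clec4a2 read 6.82, 6.82 and 6.46, Clec4n 2.93, 3.18 and 3.06, and Clec7a 5.94, 5.59 and 5.59 in that order.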
